A study of Arabidopsis thaliana with 30 samples.

Results

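The indole glucosinolate genes are 10 genes of Arabidopsis thaliana that switch on, carry out and modify the synthesis of glucosinolates from tryptophan. They were chosen by their gene identifiers, all 10 were among the 33498 genes counted, and all 10 had enough reads to be tested. Glucosinolates are sulfur-rich defence compounds of the cabbage family that are cut by myrosinases when a leaf is damaged, and the indole class is also used in defence against fungi and in the innate immune response. The pathway takes tryptophan to indole-3-acetaldoxime, a branch point that also feeds camalexin and auxin, and from there through S-alkylation, cleavage, glucosylation and sulfation to the parent indole glucosinolate. R2R3 MYB transcription factors, working with bHLH proteins of the MYC2 family, activate these genes, and jasmonate and wounding raise them.

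Messenger RNA was sequenced from the aerial tissue of 15-day seedlings of 10 lines, with 3 libraries of each. C24 and Ler (Landsberg erecta) are inbred accessions, C24XLer and LerXC24 are their reciprocal F1 hybrids from hand pollination, and the other lines are F6 lines bred by recurrent selection from the C24/Ler hybrid. The hybrid mimics, F6 lines named for their likeness to the F1, are HM-G, HM-S and HM-W, and the 3 remaining F6 lines are Sml-D, Med-F and Med-E. All plants were untreated and grew on MS medium with sucrose with days of 16 h (22 °C) and nights of 8 h (18 °C). The parents and F1 hybrids have replicates A, B and C, the F6 lines have siblings 1, 2 and 3 of a line, and the labels do not say whether a library was made from 1 plant or a pool, so p-values rest on spread that may be technical.

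Libraries held 41600826 to 53397900 reads, and pairs from 1 line had a Pearson r of 0.983 to 0.993 across genes. Green-leaf markers (RBCS1A, LHCB1.1, LHCB2.1 and RCA) summed to 24420 to 35750 CPM (counts scaled to library size), while 6 root markers summed to 5.48 to 13.89 and 4 flower markers to 7.7 to 40.64 CPM. None of these markers was at 0 in any library. Within its line, C24XLer A stood apart in the wound and immune response markers. The list is JAZ1, JAZ10, VSP2, LOX2, WRKY33, WRKY40, WRKY53, FRK1 and CBP60G. Those 9 genes summed to 3985 CPM in C24XLer A and to 1124 CPM in each of C24XLer B and C. The libraries of the other lines ran from 260.5 CPM (HM-S sibling 2) to 3026 CPM (Med-E sibling 2). All Med-E libraries, at 1555 CPM or more, lay above C24XLer B and C. C24XLer A was the highest of the 30 libraries for 7 of these 9 markers, for 6 of the 10 indole glucosinolate genes and for 4.19% of all 29268 genes tested. Calls that use C24XLer are therefore given with and without it.

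The genes lie on 4 chromosomes of the TAIR10.1 assembly, and no counted gene overlaps any of them. The regulators are MYB34 (AT5G60890, chr5:24494291-24496371), MYB51 (AT1G18570, chr1:6389399-6391386) and MYB122 (AT1G74080, chr1:27855578-27857598). CYP79B2 (AT4G39950, chr4:18525042-18527602) and CYP79B3 (AT2G22330, chr2:9488413-9491404) are close copies that both turn tryptophan into indole-3-acetaldoxime, and reads could be shared between them. CYP83B1 (AT4G31500, chr4:15273410-15275404, minus strand) oxidises the oxime, and SUR1 (AT2G20610, chr2:8877887-8880440, minus strand) is the C-S lyase that frees the thiohydroximate. UGT74B1 (AT1G24100, chr1:8525334-8527087, minus strand) adds glucose, SOT16 (AT1G74100, chr1:27864345-27865694, minus strand) adds the sulfate, and CYP81F2 (AT5G57220, chr5:23187840-23189902) hydroxylates the finished indole ring on the way to the 4-methoxy form. SOT16 lies 151 bases from SOT18, its close copy in the aliphatic branch, and 6746 bases from MYB122, and MYB51 lies 7144 bases from SOT17.

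The promoters of 4 members are shown. They are the regulator that separated the lines most clearly, the pair of entry enzymes, and SUR1, the 1 member with the G-box named below. Each is the 250 bases before the gene's start in TAIR10.1, read 5′ to 3′ on the gene's strand, with capitals for 3 motifs searched on both strands: the G-box CACGTG, the W-box core TTGAC and the AC element core ACCTA.
MYB34 (chr5:24494041-24494290, plus strand): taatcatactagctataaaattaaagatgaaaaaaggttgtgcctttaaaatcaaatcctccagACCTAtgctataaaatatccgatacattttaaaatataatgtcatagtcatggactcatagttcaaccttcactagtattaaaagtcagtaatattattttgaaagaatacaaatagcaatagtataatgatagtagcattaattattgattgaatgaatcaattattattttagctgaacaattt
CYP79B2 (chr4:18524792-18525041, plus strand): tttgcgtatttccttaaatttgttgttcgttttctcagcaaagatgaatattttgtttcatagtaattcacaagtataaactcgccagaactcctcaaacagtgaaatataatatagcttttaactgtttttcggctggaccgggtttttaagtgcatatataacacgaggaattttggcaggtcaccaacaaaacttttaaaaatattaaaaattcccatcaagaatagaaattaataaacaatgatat
CYP79B3 (chr2:9488163-9488412, plus strand): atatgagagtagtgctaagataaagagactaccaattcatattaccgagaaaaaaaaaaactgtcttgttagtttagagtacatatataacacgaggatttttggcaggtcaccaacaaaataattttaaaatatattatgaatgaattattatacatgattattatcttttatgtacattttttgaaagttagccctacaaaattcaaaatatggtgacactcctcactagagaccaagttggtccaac
SUR1 (chr2:8880441-8880690, minus strand): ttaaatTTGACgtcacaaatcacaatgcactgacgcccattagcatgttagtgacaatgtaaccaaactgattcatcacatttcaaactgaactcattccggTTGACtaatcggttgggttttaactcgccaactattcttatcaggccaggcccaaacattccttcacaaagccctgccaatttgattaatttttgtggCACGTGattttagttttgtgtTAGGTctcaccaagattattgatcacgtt

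MYB34 holds an AC element core starting 186 bases before the gene's start, of the kind that R2R3 MYB factors are known to bind. SUR1 holds the G-box, which bHLH factors such as MYC2 are known to bind, 50 bases before its start, with W-box cores at 244 and 148 bases and an AC element core at 29 bases before it. The promoters of CYP79B2 and CYP79B3 hold none of the 3 motifs in this window. Over the 10 members the G-box occurred in 1, the W-box core in 3 and the AC element core in 4 promoters, against 6.6%, 45% and 26.4% of 26706 promoters of the same length. The W-box core, which WRKY factors are known to bind, was found in MYB51, SUR1 and CYP81F2. None of these matches overlapped another.

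CYP79B2 and CYP79B3 share a stretch of 40 bases in which 39 are identical, the longest such stretch between their promoters with at most 1 mismatch. It was looked for after the sequences had been seen, and the lower-case letter marks the base that differs.
CYP79B2 (chr4:18524947-18524986, plus strand): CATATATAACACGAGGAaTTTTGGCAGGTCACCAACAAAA
CYP79B3 (chr2:9488244-9488283, plus strand): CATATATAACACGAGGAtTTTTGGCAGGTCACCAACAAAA
The stretch ends 56 bases before the start of CYP79B2 and 130 bases before that of CYP79B3. Whether the stretch has a part in how these genes vary was not tested.

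In level per length, the 6 core enzymes stood above the regulators, and CYP81F2 lay between MYB34 and MYB122. Medians over the 30 libraries, in FPKM (here CPM per kilobase of exon), were 70.0 for SUR1, 46.5 for CYP83B1, 37.8 for SOT16, 34.8 for UGT74B1, 15.9 for CYP79B3 and 12.6 for CYP79B2. Among the regulators the median FPKM was 8.06 for MYB51, 5.85 for MYB34 and 1.89 for MYB122, and CYP81F2 was at 4.44. The lowest count of any member in any library was 70 (CYP81F2 in Med-E sibling 1). Because whole shoots were sequenced, fewer cells of a type and less RNA per cell cannot be told apart in any of these levels.

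**Figure D1:**
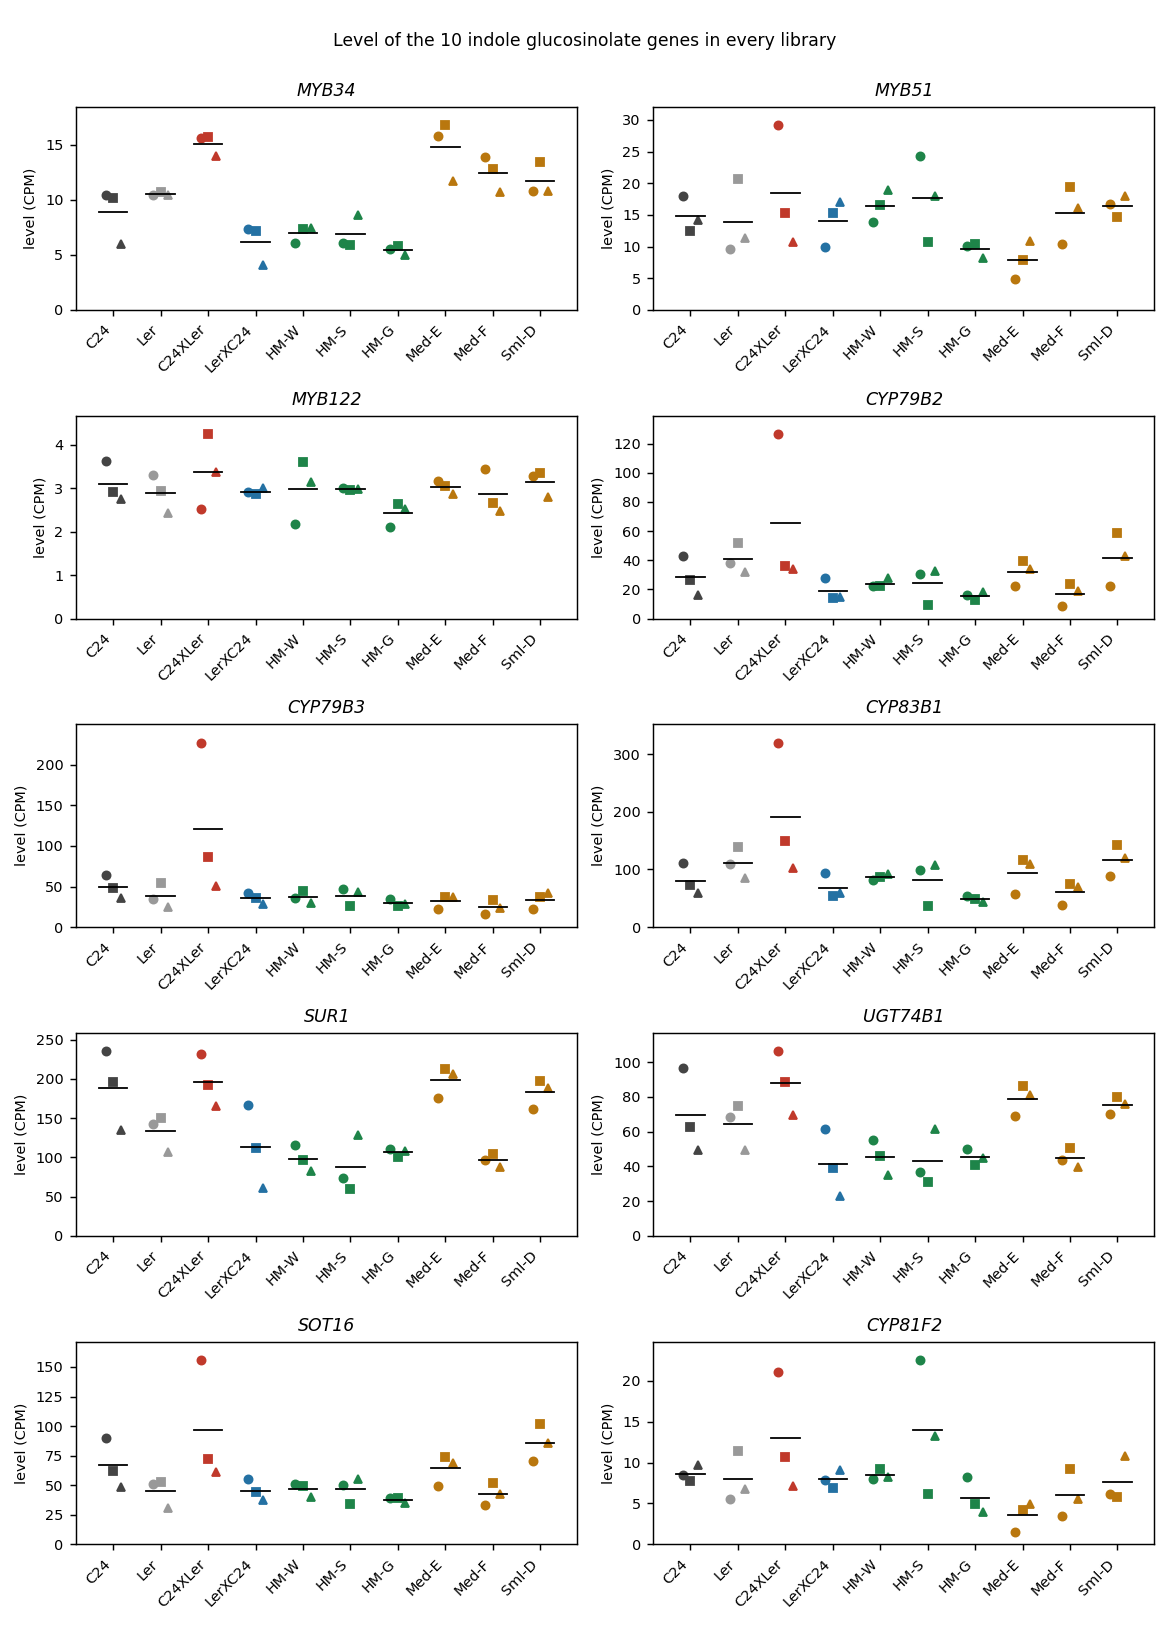
Level (CPM, linear axis from 0) of each of the 10 genes in every library, by line. Circles, squares and triangles are replicates A, B and C or siblings 1, 2 and 3, bars are line means, and the C24XLer A circle stands at 227 CPM for CYP79B3 and 320 CPM for CYP83B1, above all other libraries.

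Among the 10 lines, 8 of the 10 genes differed at an adjusted p under 0.05 (edgeR quasi-likelihood F test, Benjamini-Hochberg over 29268 genes), against a background of 65% of all genes. The clearest was MYB34 (adjusted p = 1.8e-06), followed by CYP79B3 (4.1e-04), SUR1 (4.3e-04), SOT16 (0.0012), UGT74B1 (0.0032), CYP83B1 (0.0039), CYP79B2 (0.010) and CYP81F2 (0.021). MYB51 (0.067) and MYB122 (0.54) did not pass. MYB51 passed with DESeq2 (adjusted p = 0.045), and CYP79B2 did not pass with the clock index as a covariate (0.071). Mean levels spanned from 1.40-fold between the highest and lowest line for MYB122 to 5.01-fold for CYP79B3. Without C24XLer A the ratio of CYP79B3 was 2.83 and the widest was that of CYP81F2, 3.92, between HM-S and Med-E. With all libraries the extremes of CYP79B3 were C24XLer at 121 ± 93 CPM (SD, n = 3, as for all levels of a line) and Med-F at 24.2 ± 8.9 CPM.

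Libraries of one line differed widely in these genes. The SD within lines was 0.22 (MYB122) to 0.67 (CYP79B2) on the log2 scale, and the median over 13518 genes of at least 10 CPM was 0.127. For CYP79B2, 98.9% of those genes had a smaller SD, and for MYB34, with 0.27, 90.1% did. MYB34, MYB122 and CYP81F2 averaged below 10 CPM, so those genes are not matched to them in level. In HM-S, for example, CYP79B2 was at 30.8, 9.20 and 32.3 CPM in siblings 1, 2 and 3, while MYB122 was at 3.01, 2.96 and 2.99. In the same line CYP83B1 and SUR1 were also lowest in sibling 2, at 36.1 and 59.4 CPM.

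MYB34, which in Arabidopsis is a main activator of indole glucosinolate genes and of tryptophan synthesis, gave the clearest order of lines. Its level was 15.1 ± 1.0 CPM in C24XLer, 14.7 ± 2.7 in Med-E, 12.45 ± 1.58 in Med-F, 11.7 ± 1.5 in Sml-D and 10.51 ± 0.15 in Ler. Below these came C24 at 8.84 ± 2.50, HM-W at 6.96 ± 0.75, HM-S at 6.85 ± 1.53, LerXC24 at 6.17 ± 1.83 and HM-G at 5.43 ± 0.45 CPM. Each pair of neighbours in this order differed by less than the larger of their SDs. The 3 hybrid mimics and LerXC24 formed the low end, and C24XLer stood at the high end with Med-E.

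MYB51, a regulator known to answer to pathogen signals and ethylene, spread widely within lines. Its level ran from 7.86 ± 2.98 CPM in Med-E to 18.4 ± 9.6 in C24XLer, with C24XLer A at 29.1 and B and C at 15.3 and 10.8. HM-G, at 9.55 ± 1.12 CPM, was next above Med-E, and the other 7 lines lay between 13.9 and 17.7 CPM, within each other's SDs. MYB122, the third activator, was at 2.42 ± 0.27 CPM in HM-G and 3.38 ± 0.86 in C24XLer, and the remaining lines lay between 2.86 and 3.14. No order can be read from those means.

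Between the parents, none of the 10 genes was called, against 25.8% of all genes called between C24 and Ler. At an unadjusted p under 0.05 the count was also 0, beside 10546 of 29268 genes, and DESeq2 called 0. The largest differences were in SOT16 (log2 change C24 minus Ler 0.57 ± 0.29 SE, adjusted p = 0.15, edgeR) and CYP79B2 (-0.52 ± 0.49, adjusted p = 0.49). SOT16 was at 90.0, 62.4 and 48.6 CPM in C24 A, B and C and at 51.1, 53.1 and 31.0 in Ler, so the accessions overlapped. With a replicate block SOT16 was called (0.55, adjusted p = 0.049), where 7773 of 29268 genes were called. With the clock index as a covariate SUR1 (1.04, adjusted p = 0.0022), SOT16 (1.00, 0.015) and UGT74B1 (0.70, 0.033) were called, where 5822 of 29268 genes were.

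The aliphatic branch, which makes glucosinolates from methionine with its own MYB factors and enzymes, gave 4 higher and 1 lower call in C24 among its 9 counterparts in the same comparison. MYB76 (log2 change 1.71 ± 0.37, adjusted p = 9.6e-04), CYP79F1 (1.56 ± 0.39, 0.0035), MYB29 (1.46 ± 0.41, 0.0092) and SOT17 (1.20 ± 0.31, 0.0055) were higher in C24 by edgeR, and MYB28 was lower (-0.52 ± 0.13, 0.0038). The median log2 change of the 9 was 0.46, that of the indole genes 0.11 and that of all genes 0.005. The difference between the branches was not tested. Among the partner, transport and breakdown genes 3 of 10 were called, near the share of all genes: PYK10, a myrosinase-type beta-glucosidase, was higher in C24 (2.00 ± 0.30, adjusted p = 1.9e-05), and MYC3, a bHLH partner of the MYB factors (-1.07 ± 0.09, 2.3e-09), and GTR2, a glucosinolate transporter (-0.77 ± 0.15, 3.5e-04), were lower.

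Against the mid-parent (the mean of C24 and Ler on the log scale), the mean of both F1 hybrids showed no called member, where 11.5% of all genes were called. At an unadjusted p under 0.05 the count was 1 (CYP79B3, log2 change 0.61 ± 0.28, adjusted p = 0.16, edgeR), beside 8163 of 29268 genes, and DESeq2 called 0. In C24XLer 2 of the 10 rose, CYP79B3 by 1.49 ± 0.33 (adjusted p = 0.015) and MYB34 by 0.64 ± 0.17 (0.040), where 2.34% of all genes were called. SOT16 (0.81 ± 0.24, 0.073) was also called with the replicate block (0.74, 0.024), with DESeq2 (0.82, 0.028) and with the clock index, defined below, as a covariate (0.82, 0.032). In LerXC24 1 of the 10 fell, MYB34 (-0.64 ± 0.18, adjusted p = 0.016), where 16.5% of all genes were called. UGT74B1 (-0.70 ± 0.25, 0.058) was also called with DESeq2 (-0.70, 0.023), and with the replicate block both UGT74B1 (-0.76, 0.0083) and SUR1 (-0.55, 0.041) were, while the clock covariate turned them to 0.12 and 0.23. Without C24XLer A no member was called in C24XLer, while the calls over all genes went from 685 to 2008. CYP79B3 was then at 0.67 (adjusted p = 0.20) and MYB34 at 0.62 (0.057), and without LerXC24 C the change of MYB34 was -0.41 (0.18), as it was -0.13 (0.88) with the clock covariate. The MYB34 rise in C24XLer lost its call without any 1 of 7 of the 9 libraries it rests on, with values of 0.54 to 0.71 (adjusted p up to 0.19).

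The direct comparison of the reciprocal F1 hybrids, which carry the same nuclear genomes but differ in which accession was the mother, gave the most calls. Of the 10 genes, 6 were higher in C24XLer and 0 lower, against 4.91% of all genes called. They were the regulator MYB34 and 5 of the 6 core enzymes, and the same 6 had no overlap between the hybrids' libraries, where 7.94% of all genes had all C24XLer libraries above all LerXC24 libraries. The median log2 change over the 10 was 1.09, and -0.01 over all genes.

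MYB34 was at 15.6, 15.6 and 13.9 CPM in C24XLer A, B and C and at 7.35, 7.12 and 4.06 in LerXC24. All 3 libraries of C24XLer were thus at about the same level, well above LerXC24, and the log2 change was 1.29 ± 0.20 (adjusted p = 0.0094, edgeR). It was 1.26 without C24XLer A (adjusted p = 0.041).

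The entry enzymes had a different pattern. CYP79B2 was at 126.5, 35.9 and 33.7 CPM in C24XLer and at 27.9, 13.9 and 14.4 in LerXC24 (log2 change 1.80 ± 0.50, adjusted p = 0.039), and CYP79B3 was at 227, 86.3 and 50.6 against 42.5, 35.5 and 28.7 (1.77 ± 0.41, 0.019). C24XLer A was the high library in both, and B and C stayed above every LerXC24 library. CYP83B1 was at 320, 149 and 103 CPM against 93.2, 53.3 and 59.5 (1.47 ± 0.39, 0.031), with the same high library.

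For the later steps, UGT74B1 was at 106, 88.5 and 69.3 CPM in C24XLer and at 61.6, 39.2 and 22.8 in LerXC24 (1.09 ± 0.28, adjusted p = 0.030). SOT16 was at 156, 71.8 and 61.4 against 55.6, 43.9 and 37.1 CPM (1.08 ± 0.29, 0.033). SUR1 was at 232, 192 and 165 against 167, 112 and 60.9 CPM, with C24XLer C just below LerXC24 A, and was not called (0.79 ± 0.27, 0.086). CYP81F2 was at 21.1, 10.7 and 7.15 against 7.93, 6.93 and 9.03 CPM, so the hybrids overlapped (0.70 ± 0.44, 0.41). MYB51 (0.38 ± 0.34, 0.61) and MYB122 (0.21 ± 0.17, 0.58) overlapped too.

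These calls rested on few libraries, as did those of all genes. Without C24XLer A the count of members fell from 6 to 1, MYB34, and that of all genes from 1438 to 17, and the log2 changes of the core enzymes fell to 0.90 (CYP79B2), 0.95 (CYP79B3), 0.87 (CYP83B1), 0.94 (UGT74B1) and 0.55 (SOT16). Without C24XLer B or LerXC24 B 1 member was called, with 21 and 3 of all genes, and without LerXC24 C 0 members and 0 genes. When the fit held no line but the 2 hybrids, or with the clock index as a covariate, 0 members and 0 of all genes were called. The clock index, the mean log2 level of evening genes (TOC1, LUX, ELF4, GI and PRR3) minus that of morning genes (CCA1, LHY, PRR9, LNK1, LNK2 and RVE8), was -1.05 ± 0.26 in C24XLer and 0.06 ± 0.67 in LerXC24. Its part in the result was not tested, and neither was that of the wound and immune markers, which summed to 1124 to 3985 CPM in C24XLer and 394.7 to 1203 in LerXC24.

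**Figure D2:**
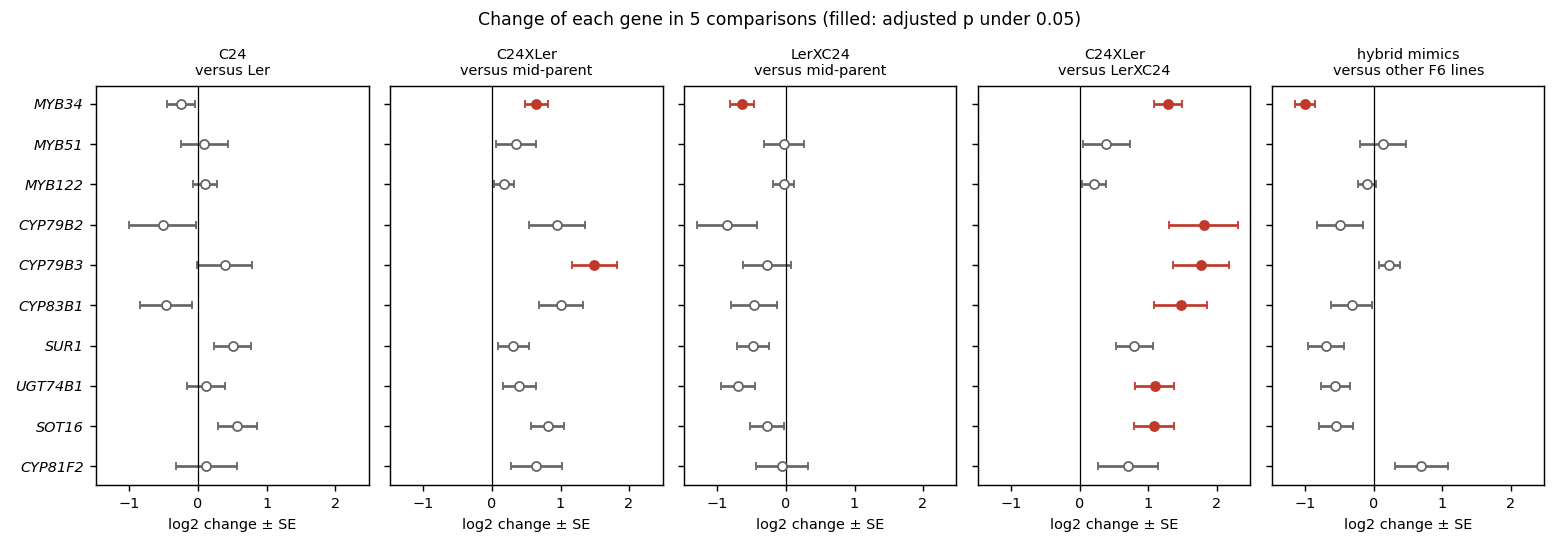
Log2 change with its standard error for each gene in 5 comparisons, filled red where the adjusted p was under 0.05. The panel of C24XLer against LerXC24 has 6 filled points, all to the right of 0, and the panel of hybrid mimics against the other F6 lines has 1, MYB34, to the left of 0.

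Some genes next to the pathway were also called higher in C24XLer than in LerXC24 with all libraries, and none of them without C24XLer A. Of 6 genes for shared core steps and sulfur donation, 3 rose: APK1 (log2 change 1.25 ± 0.28, adjusted p = 0.019, edgeR) and APK2 (1.40 ± 0.37, 0.033), the kinases that supply active sulfate, and GGP1 (0.95 ± 0.26, 0.037), which processes the glutathione conjugate. Of 10 tryptophan genes 1 rose, IGPS (1.08 ± 0.27, 0.027), and of the 10 partner, transport and breakdown genes 1 rose, MYC2 (1.89 ± 0.47, 0.024). IGMT5, a methyltransferase of the indole ring, was the 1 of 8 other ring-modifying genes that rose (2.03 ± 0.55, 0.036). MYC2 overlaps a counted gene on the opposite strand over most of its length, and IGPS and IGMT5 do so at a short stretch. IGMT5 was at 158 CPM in C24XLer A and at 27.9 and 39.8 CPM in B and C. Without C24XLer A the log2 changes were 1.04 (APK1), 1.06 (APK2), 0.63 (GGP1), 0.46 (IGPS), 1.44 (MYC2) and 0.87 (IGMT5), with adjusted p from 0.086 to 0.38.

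In the aliphatic branch 2 of 9 counterparts rose in that comparison, CYP79F2 (1.04 ± 0.26, adjusted p = 0.027) and UGT74C1 (0.84 ± 0.25, 0.049). All 9 had an unadjusted p under 0.05 by edgeR, as did 5640 of all 29268 genes. Their median log2 change was 0.93, beside 1.09 for the indole genes. Without C24XLer A CYP79F2 was at 0.96 (0.10) and UGT74C1 at 0.74 (0.17). Then 8 of the 9 had an unadjusted p under 0.05, beside 4814 of 29448 genes, and the median was 0.91. None of the 8 genes for camalexin and other products of indole-3-acetaldoxime was called in edgeR, 3 at an unadjusted p under 0.05, with a median of 0.33. Of the wound and immune markers 1 of 9 rose (WRKY53, 1.26 ± 0.31, 0.024), 7 had an unadjusted p under 0.05, and their median was 1.45. Without C24XLer A WRKY53 was at 0.82 (0.17), 1 of the 9 had an unadjusted p under 0.05 and the median was 0.64.

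The hybrid mimics were compared with the other F6 lines by line, 3 against 3, with the siblings of a line summed. MYB34 was the 1 member called, lower in the mimics (log2 change -1.0 ± 0.15, adjusted p = 0.037, edgeR on 29951 genes), where 1.48% of all genes were called. Over siblings it ran from 4.94 to 8.61 CPM in the mimics, with a median of 6.09, and from 10.7 to 16.7 CPM in the other lines, with a median of 12.8. The 9 libraries of each class did not overlap for MYB34, and for the other 9 genes they did; over all genes, 2.28% had all mimic libraries below all others.

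SUR1 (-0.70 ± 0.27, adjusted p = 0.22), UGT74B1 (-0.57 ± 0.21, 0.22), SOT16 (-0.55 ± 0.25, 0.28), CYP79B2 (-0.50 ± 0.33, 0.45), CYP83B1 (-0.32 ± 0.30, 0.59), MYB122 (-0.10 ± 0.13, 0.69), MYB51 (0.13 ± 0.33, 0.86), CYP79B3 (0.22 ± 0.15, 0.46) and CYP81F2 (0.69 ± 0.39, 0.37) did not pass. Med-F was the line that set SUR1 and UGT74B1 apart from the MYB34 pattern. It had MYB34 at 12.45 ± 1.58 CPM, but SUR1 at 96.3 ± 8.5 and UGT74B1 at 44.5 ± 5.7, near the mimics' 87.2 to 106 and 42.9 to 45.2 CPM. Med-E and Sml-D had SUR1 at 198 ± 20 and 183 ± 19 CPM.

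Without Med-F the calls over all genes rose from 444 to 2373, and 4 members were lower in the mimics: MYB34, SUR1 (-0.96, adjusted p = 0.0090), UGT74B1 (-0.79, 0.0060) and SOT16 (-0.77, 0.048). Without any 1 of the other 5 lines, when 33 to 394 of all genes were called, no member was, and MYB34 was then between -0.89 and -1.07. It also lost its call without HM-S sibling 2 (-0.96, adjusted p = 0.055), without Med-E sibling 3 (-1.06, 0.05001) and with the clock index as a covariate (-0.97, 0.17). The mean clock index was -0.61 to -0.14 in the 3 mimics, and -0.44 in Med-F, -1.60 in Sml-D and -1.89 in Med-E. Its part in the result was not tested. Of the other lists, 2 of 8 ring-modifying genes rose in the mimics, IGMT4 (1.92 ± 0.19, 0.014) and IGMT2 (1.03 ± 0.16, 0.040), neighbouring copies between which reads may have been split. None of the 9 aliphatic counterparts was called by edgeR (3 at an unadjusted p under 0.05, beside 5963 of 29951 genes, median -0.78).

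Of 80 pairs of a gene and a hybrid or F6 line, 2 were outside the range of the parents. Outside means called against both C24 and Ler in the same direction, and the shares of all genes follow by line. CYP79B3 was above both in C24XLer (log2 change 1.30 ± 0.40 over C24, adjusted p = 0.040, and 1.69 ± 0.41 over Ler, 0.0073). MYB34 was below both in HM-G (-0.70 ± 0.20 against C24, 0.030, and -0.95 ± 0.20 against Ler, 0.0015).

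Over all genes, 0.304% were above and 0.232% below both parents in C24XLer, and 2.15% and 1.63% in LerXC24. The mimics had 2.98% above and 3.72% below (HM-W), 4.67% and 5.38% (HM-S) and 0.868% and 0.926% (HM-G). Sml-D had 0.899% above and 1.12% below, Med-F 3.59% and 2.65%, and Med-E 1.27% and 1.83%. Without C24XLer A the CYP79B3 call was gone and 1 pair remained. Without C24 B there was none, without C24 C there were 4, all MYB34 (LerXC24, HM-W, HM-S and HM-G, below), and without HM-S sibling 3 there were also 4. Leaving out C24 A, Ler C or any 1 sibling of HM-G gave 1. With the clock index as a covariate the 2 pairs were others, MYB34 above the parents in C24XLer and in Med-F.

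How the genes varied together is described over the 30 libraries, after subtracting each line's mean, so that differences between line means do not enter. The 30 deviations are not independent points: they leave 20 degrees of freedom, and they share library handling and depth. The 15 pairs of the 6 core enzymes correlated at 0.60 to 0.98, with a median Pearson r of 0.76. SUR1 and UGT74B1 stood at 0.98, CYP79B2 and CYP83B1 at 0.94, and CYP79B3 and SOT16 at 0.93. CYP79B2 and CYP79B3 had r 0.86 (Spearman rho 0.82, and r 0.82 without the 2 libraries farthest from the median of CYP79B2). Leaving out C24XLer A changed the range of the 15 pairs to 0.61 to 0.97.

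**Figure D3:**
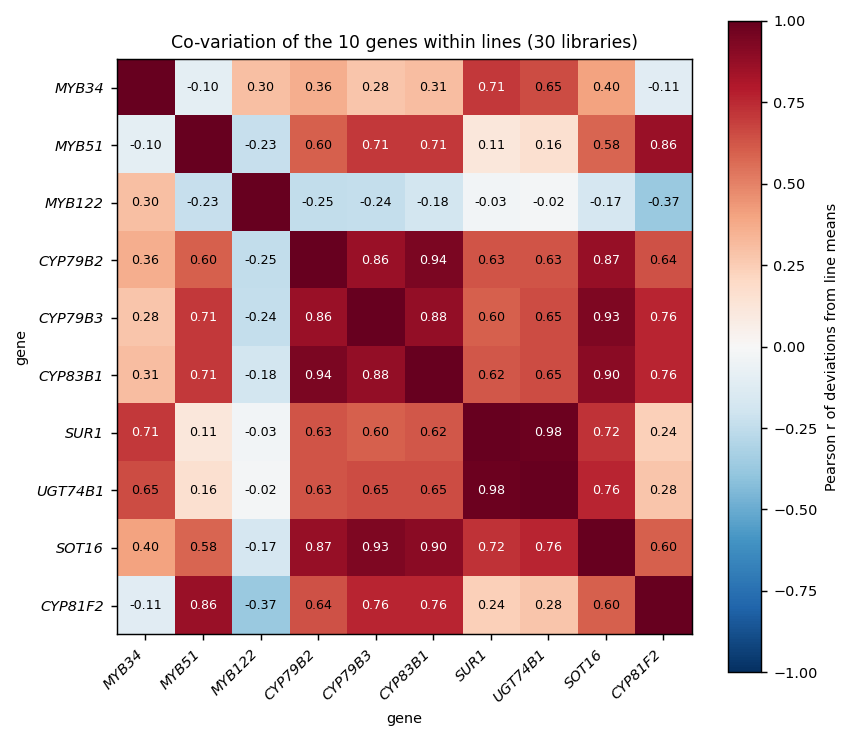
Pearson r between each pair of the 10 genes over 30 libraries, computed on deviations of log2 CPM from the line mean (colour scale from -1 to 1). SUR1 and UGT74B1 form the tightest pair at 0.98, MYB51 and CYP81F2 reach 0.86, and MYB122 lies at -0.37 to -0.02 with the enzymes.

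Within lines, the regulators did not all follow the same enzymes. MYB34 correlated within lines with SUR1 at 0.71 and with UGT74B1 at 0.65, but with CYP79B3 at 0.28 and with CYP81F2 at -0.11. MYB51 had the reverse pattern, with CYP81F2 at 0.86 (rho 0.79, and 0.83 without the 2 farthest libraries or without C24XLer A), CYP79B3 and CYP83B1 at 0.71, and SUR1 at 0.11. CYP81F2 is known as a gene of inducible defence, and MYB51 is the factor most often linked to it. MYB122 had r from -0.37 to -0.02 with the enzymes, and from -0.23 to 0.16 without C24XLer A. MYB34 and MYB51 did not vary together (-0.10).

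Against the mean standardised level of the 6 core enzymes, MYB34 had r 0.62 over the 30 libraries (rho 0.61, and 0.56 without the 2 farthest) and 0.49 within lines (rho 0.39, and 0.36 without the 2 farthest). MYB51 had 0.32 over the 30 libraries (rho 0.23, and 0.15 without the 2 farthest) and 0.55 within lines (rho 0.49, and 0.40). MYB122 had 0.23 (rho 0.32, and 0.10) and -0.17 within lines (rho -0.16, and 0.03). Of 13511 other genes of at least 10 CPM, those most like this core profile over the 30 libraries were OPCL1 (r 0.94) and OPR3 (0.92), both enzymes of jasmonate synthesis, GGP1 (0.92), CLH1 (0.91), a chlorophyllase, and AT3G08640 (0.91). Without C24XLer A these 5 stood at 0.92, 0.89, 0.90, 0.88 and 0.91.

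Over the 30 libraries, genes most like MYB34 were AT1G28610 (0.88), ANK1 (0.88), AT3G61960 (0.87), TPPE (0.87) and SAT32 (0.86). Those most like MYB51 were AT2G26190 (0.87), AT4G36500 (0.86), CAD1 (0.84), TCH3 (0.83), a calmodulin-like gene known to be induced by touch, and AT1G33600 (0.82). For MYB122 they were AT3G44280 (0.74), AT1G15280 (0.72), PUB43 (0.71), AT3G53390 (0.70) and AT1G68490 (0.69). Within lines the 5 genes for MYB34 stood at 0.59, 0.50, 0.48, 0.72 and 0.71, in the same order. Those for MYB51 stood at 0.85, 0.82, 0.87, 0.90 and 0.74, and those for MYB122 at 0.72, 0.75, 0.69, 0.63 and 0.73. No gene was on more than 1 of these lists.

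**Figure D4:**
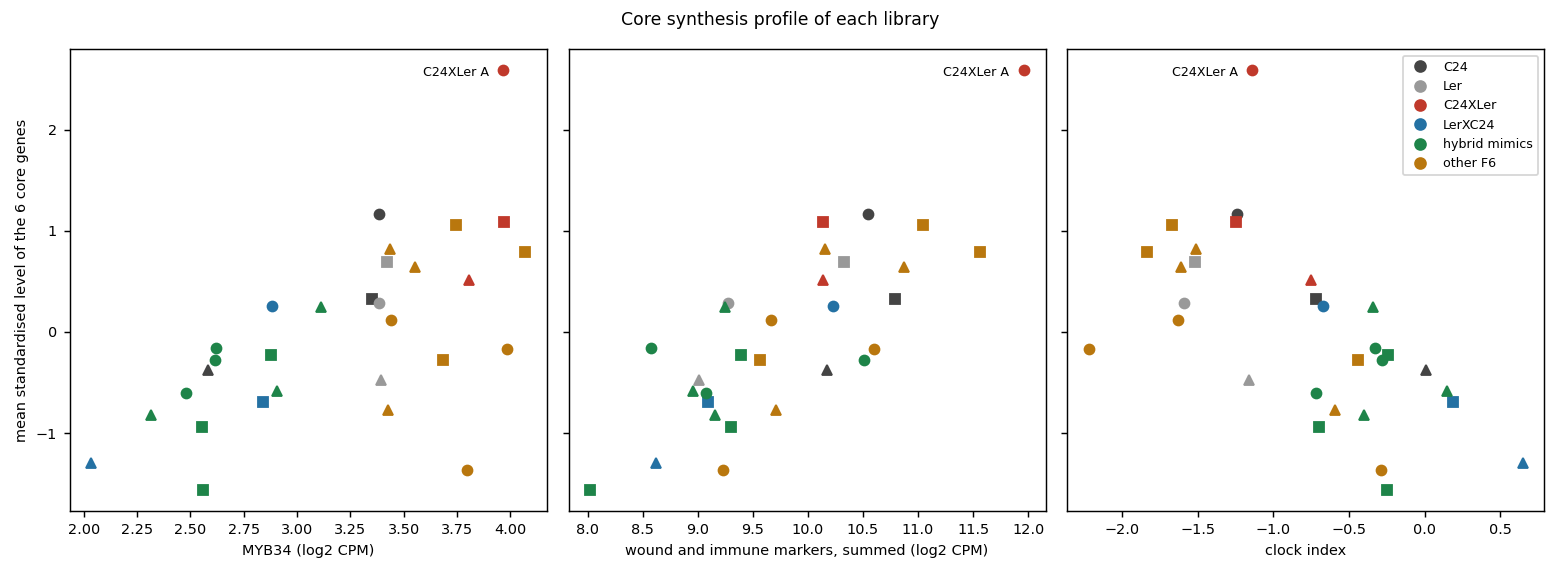
Mean standardised log2 level of the 6 core enzymes in each library against MYB34 (log2 CPM), the summed wound and immune markers (log2 of summed CPM) and the clock index (log2 units, evening minus morning genes), with circles, squares and triangles for replicates A, B and C or siblings 1, 2 and 3. C24XLer A has the highest core level, 2.59, and the highest summed markers, but lies beside C24XLer B in MYB34 and in the clock index.

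The clock index moved with several members within lines. Its correlation over the 30 libraries was -0.73 with UGT74B1, -0.69 with SUR1, -0.64 with MYB34 and -0.52 with SOT16, and -0.37 to -0.39 with CYP79B2, CYP79B3 and CYP83B1. With MYB51, MYB122 and CYP81F2 it was 0.12, -0.15 and 0.06. Within LerXC24 the index was -0.67, 0.19 and 0.65 in A, B and C, while SUR1 was at 167, 112 and 60.9 CPM and MYB34 at 7.35, 7.12 and 4.06. The labels give no time of harvest, and the part of the clock in these levels was not tested.

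The other lists held a few calls in the comparisons with the mid-parent. Of all genes, 11.5% were called for the mean of both F1 hybrids. For the F1 hybrids against the mid-parent, 1 of 10 tryptophan genes rose (PAI2, 0.43 ± 0.10, adjusted p = 0.0086, edgeR), 1 of 6 core and sulfur genes rose (GSTU13, 0.41 ± 0.11, 0.015), and 2 of 8 ring-modifying genes rose, CYP81F4 (1.13 ± 0.35, 0.040) and CYP81F1 (0.28 ± 0.09, 0.044). CYP81F1 and CYP81F4 each overlap a counted gene on the opposite strand, and whether counting used strand is not given. MYC3 rose (0.28 ± 0.06, 0.0070) and GTR1, a glucosinolate transporter, fell (-0.42 ± 0.14, 0.048), as 2 of the 10 partner, transport and breakdown genes. Of the 8 camalexin and oxime-product genes 2 fell, NIT2, a nitrilase (-3.37 ± 0.79, 0.0085), and CYP82C2 (-1.15 ± 0.37, 0.044). Without C24XLer A, CYP81F4 (0.99, 0.067) and CYP82C2 (-1.11, 0.059) were no longer called, and the other 6 of these genes were. NIT2 was at 57.3 CPM in Ler A but at 0.679 and 4.72 in Ler B and C.

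In LerXC24 against the mid-parent 2969 of all genes rose and 1851 fell, 16.5% in all, and the lists held calls in both directions. In C24XLer 550 of all genes rose and 135 fell, 2.34% in all. For LerXC24 the calls outside the tissue markers were as follows. In the core and sulfur list 2 of 6 fell, APK1 (-0.81 ± 0.25, adjusted p = 0.029) and GSTF9 (-0.52 ± 0.15, 0.023), and in the aliphatic list 3 of 9 fell, CYP83A1 (-0.73 ± 0.19, 0.011), CYP79F2 (-0.72 ± 0.23, 0.037) and MYB28 (-0.37 ± 0.12, 0.028). In the ring-modifying list 3 of 8 rose, IGMT4 (0.67 ± 0.18, 0.015), IGMT2 (0.66 ± 0.19, 0.020) and CYP81F1 (0.37 ± 0.11, 0.022). Of the 10 partner, transport and breakdown genes, GTR1 (-0.69, 0.008) and MYC4 (-0.59, 0.019) fell and MYC3 (0.301, 0.01035) rose. Of the 8 camalexin and oxime-product genes NIT2 fell (-4.05, 0.014). Of the 10 tryptophan genes PAI2 rose (0.355, 0.048). Of the 11 clock index genes 1 rose and 5 fell, and none of the 9 wound and immune markers was called. In C24XLer against the mid-parent IGMT5 (2.12 ± 0.44, 0.0094) and CYP81F4 (1.75 ± 0.41, 0.022) rose, 2 of 8, though neither was called without C24XLer A (0.97, 0.17, and 1.47, 0.054). GSTU13 (0.53, 0.026) and PAI2 (0.51, 0.025) also rose in C24XLer against the mid-parent. Without C24XLer A PAI2 stayed called (0.49, 0.036) and GSTU13 did not (0.32, 0.14). None of the 9 aliphatic counterparts was called there (0 at an unadjusted p under 0.05, beside 5310 of 29268 genes, edgeR). The comparisons of C24XLer and of LerXC24 with the mid-parent share the parents' libraries.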

How the data were processed

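The authors deposited raw whole-number counts per gene, not normalized (per the file headers), with a table of read counts per library. The submitters' processing notes name FastQC, DESeq and the TAIR10 build. No source used here names the aligner or counter, or says if strand was used. RefSeq's TAIR10.1 annotation and sequence gave symbols, positions, exon lengths and promoters (32742 of 33498 identifiers matched).

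The main test was edgeR 4.0.16 (R 4.3.3, limma 3.58.1). filterByExpr at a minimum count of 10 left 29268 genes, with TMM factors of 0.943 to 1.08 and gene totals of 46822397 to 60757656 per library. All 30 libraries entered 1 quasi-likelihood fit with a coefficient per line, with Benjamini-Hochberg adjustment over all genes and calls at an adjusted p under 0.05. Mimics and other F6 lines were compared on counts summed by line (29951 genes), because the line is the replicate there. Log2 CPM used a prior count of 2. Alternatives were DESeq2 1.42.0, other scaling, no filter, a replicate block, a clock covariate and leaving out each library or line. The code was tested on simulated counts. The text names all 10 members and the 5 genes most like each profile. Of another list it names at most 4 called genes per comparison, those with the largest absolute log2 change. MYB28 is named beyond these for C24 against Ler. Members and lists were chosen with earlier results of these data known.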

Additional observations from a re-analysis of the deposited data

Results flagged for a closer look

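C24XLer A was separated from the other 5 F1 libraries in 6 genes, by a gap to its neighbour that exceeded Dixon's 95% critical value for the range of 6 libraries. It stood at 29.13 CPM for MYB51, 126.5 for CYP79B2, 227.2 for CYP79B3, 319.7 for CYP83B1, 155.9 for SOT16 and 21.13 for CYP81F2. The 6 F1 libraries were pooled for this after their values had been seen, they come from 2 lines, and chance flags about 1 in 20 groups. MYB34, at 15.6 CPM in the same library, was not among them.

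The changes of C24XLer and LerXC24 from the mid-parent differed, by the test of their difference, in 6 genes. The difference on the log2 scale was 1.09 for UGT74B1, 1.08 for SOT16, 1.77 for CYP79B3, 1.47 for CYP83B1, 1.80 for CYP79B2 and 1.29 for MYB34. Since the parents cancel, this is the same contrast as that of the reciprocal hybrids in the report. Only MYB34 stayed called without C24XLer A.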

How the results depend on the processing

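Counts of called members with RLE scaling, no filter and DESeq2 stayed within 1.5 times those reported, except for LerXC24 against the mid-parent. There DESeq2 called 2 in place of 1, and 5376 of all genes in place of 4820. For C24 against Ler the count was 3 with the clock covariate (5822 of all genes called) and 1 with the replicate block (7773). The counts for each F1 hybrid against the mid-parent, and the values of other lists and of line ratios without C24XLer A, were added after seeing the data. For LerXC24 against the mid-parent the count was 0 with the clock covariate (160 of all genes called) and 3 with the replicate block (5300). It was 0 when other lines were kept out of the fit (3767), and 0 to 3 when each library was left out. For C24XLer against the mid-parent it was 0 when other lines were kept out (290 of all genes called), 1 with an arithmetic mid-parent (170), and 0 to 3 when each library was left out. For C24XLer against LerXC24 it was 0 with the clock covariate and 0 when other lines were kept out of the fit, and 0 to 7 when each library was left out. For the hybrid mimics it was 0 with the clock covariate, where 61 of all genes were called. With the mean of line coefficients over all libraries, which counts siblings as replicates, it was 5, and 12830 of all genes were called. It was 4 without Med-F (2373 of all genes), 0 without each other line, and 0 to 1 when each library was left out. Pairs outside the parental range numbered 5 with the block, 1 when other lines were kept out, and 0 to 4 when each library was left out; the count of genes differing among lines was then 8 to 9.

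Signs turned in values that were not called. With the clock covariate, C24 against Ler gave 0.09 for MYB34 and -0.01 for MYB51; the F1 against the mid-parent 0.28 for SUR1 and 0.27 for UGT74B1; LerXC24 against the mid-parent 0.09 for MYB122, 0.40 for CYP79B3, 0.17 for CYP83B1, 0.23 for SUR1, 0.12 for UGT74B1 and 0.39 for SOT16; the mimics -0.38 for MYB51, 0.15 for CYP79B2, 0.07 for CYP83B1, 0.06 for SUR1 and 0.01 for UGT74B1. MYB34 in the F1 against the mid-parent was 0.00 with RLE scaling, no filter, the block, DESeq2 and an arithmetic mid-parent. CYP79B2 there was -0.08 with the block. MYB51 in the mimics was -0.03 without HM-S and -0.13 without Med-E. The cause was not tested.

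Leaving out each library also turned signs. Ranges for C24 against Ler were -0.11 to 0.50 (MYB51), -0.03 to 0.21 (MYB122), -0.20 to 0.31 (UGT74B1) and -0.08 to 0.48 (CYP81F2). For the F1 against the mid-parent they were -0.11 to 0.12 (MYB34), -0.09 to 0.37 (MYB51), -0.03 to 0.16 (MYB122), -0.41 to 0.25 (CYP79B2), -0.03 to 0.42 (CYP83B1), -0.28 to 0.06 (SUR1) and -0.35 to 0.01 (UGT74B1). For C24XLer against the mid-parent they were -0.14 to 0.64 (MYB51) and -0.02 to 0.34 (MYB122). For LerXC24 against the mid-parent they were -0.19 to 0.17 (MYB51), -0.09 to 0.03 (MYB122) and -0.16 to 0.12 (CYP81F2). For C24XLer against LerXC24 MYB51 ran from -0.11 to 0.68.

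The labels do not say whether libraries of the same letter or number belong together. Same-letter deviations of the parents and F1 correlated at 0.01 to 0.44 (A), -0.21 to 0.19 (B) and 0.05 to 0.61 (C). All pairs of A and of C were thus positive, and of the 6 pairs for each letter 3 (A), 1 (B) and 5 (C) were over 0.1. Same-numbered siblings correlated at -0.50 to 0.40. The replicate block moved 6 called members to 7 in the reciprocal comparison, adding SUR1, 2 to 3 in C24XLer against the mid-parent, adding SOT16 (adjusted p = 0.024), 1 to 3 in LerXC24 against the mid-parent, adding SUR1 (0.041) and UGT74B1 (0.0083), and 8 to 7 among the lines, dropping CYP81F2 (adjusted p = 0.060). Over all genes the block moved the calls from 1438 to 2208, 685 to 703, 4820 to 5300 and 19011 to 18541, in the same order. No paired analysis was possible for the mimics because siblings were summed.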
